A study of Mus musculus with 9 samples.

Results

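The genes described here encode the digestive enzymes, the membrane proteins and the proton pump of the lysosome. They were taken from a fixed list of 45 mouse gene symbols: 11 cathepsins and legumain, 12 glycosidases and sulfatases, 7 genes of lipid breakdown and cholesterol export, 6 membrane proteins and 9 parts of the vacuolar proton pump. Of these, 44 were read by a probe set with a single gene symbol, among 18193 genes measured in all; Cd63 was not analysed here. Each gene was represented by the probe set with the highest mean over the arrays.

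All cultures began with LSK cells of wild-type C57/Bl6 mice, a bone marrow population selected for Sca-1 and c-Kit and against lineage markers, in which stem and progenitor cells are enriched. Every culture stood on OP9, a mouse stromal line used to support blood cell development, for 3 days. The first group (OP9-GFP, 3 arrays) grew on the GFP control feeder. The second (OP9-DL1, 3 arrays) grew on feeders that carry the Notch ligand Delta-like 1. The third (OP9-DL1+CompoundE, 3 arrays) grew on the same Delta-like 1 feeders with 1 µM Compound E, an inhibitor of γ-secretase, the protease that cuts ligand-bound Notch receptors and many other membrane proteins. RNA came from the non-adherent cells, and 25 ng was amplified for each array. Compound E on the GFP feeder was not analysed here, so the inhibitor's own effect and its effect through Notch cannot be told apart. The labels do not say whether the 3 arrays of a group came from separate mice or cultures, and the p-values cover no more than the spread among the arrays at hand.

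Lysosomes are acidic compartments that break down protein, sugar chains and lipids taken in from outside or delivered from within the cell. Soluble enzymes reach them mostly through mannose 6-phosphate receptors, a proton pump (the V-ATPase, with a membrane-bound V0 part and a cytosolic V1 part) acidifies them, and proteins of their membrane shield it and let the breakdown products out. Macrophages are known for abundant lysosomes and high cathepsin levels. Many lysosomal genes carry copies of the CLEAR element, an E-box-type sequence bound by TFEB and its relatives TFE3 and MITF.

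Values are log2 levels as deposited. The array medians lay between 4.78 and 4.94, and 27 probe sets for bacterial control RNA lay between 2.24 and 3.64, the upper end of which was taken as background. Replicates were close: the median SD of a member within a group was 0.064. Exactly equal values on arrays of a group occurred for 9 of the 44 members (20.5%), against 21.9% of all genes; Ctsl, for example, read 10.20 on all 3 OP9-GFP arrays. Atp6v0d2, an osteoclast-type V0 subunit, was at background in all 3 groups (means 3.37, 3.17 and 3.26), and its differences carry no information. Fewer cells of a type and less RNA per cell cannot be told apart in these bulk samples.

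On Delta-like 1 feeders the lysosomal genes were lower across all 5 roles. With Compound E, 20 of 44 were called higher than on the control feeder and 0 lower, against 12.1% and 10.6% of all genes. In OP9-DL1 against OP9-GFP, 37 of 44 fell and 0 rose (limma, adjusted p below 0.05). Over all 18193 genes, 32.6% were called, 16.7% lower and 15.9% higher. The share called was larger among bright genes. A fit on only the genes whose mean lay above that of the median gene still gave 2746 lower and 2198 higher. All members but Ctsk and Atp6v0d2 were among those brighter genes. The median difference of the 44 was −0.51 on the log2 scale, against −0.02 for all genes, and single genes ranged from −2.17 to 0.12. The 3 arrays of OP9-DL1 lay below all 3 of OP9-GFP for 40 members and above them for 1, where 23% and 20.8% of all genes did. A fall of at least 2-fold was called for 7 members: Lgmn, Ctsh, Npc1, Gla, Lipa, Ctsa and Atp6v1b2, against 2.76% of all genes; 0 rose by as much, against 4.11%.

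In OP9-DL1+CompoundE against OP9-DL1, 41 of 44 rose and 0 fell (limma). Of all genes 46.7% were called, 25.1% higher and 21.6% lower. The fit on only the brighter genes still gave 3299 higher and 3038 lower, again a larger share. The median of the members was 0.67, against 0.08 for all genes, with a range from 0.02 to 2.81. Without overlap between the arrays, 40 members were higher with the inhibitor and 0 lower, against 29.3% and 23.2% of all genes. A rise of at least 2-fold was called for 13 members, against 4.47% of all genes, and a 2-fold fall for 0, against 4.95%. Both comparisons use the same 3 OP9-DL1 arrays, so the fall in the first and the rise in the second are not independent of each other.

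Averaged over the 44 genes, the log2 level was 10.14 ± 0.02 for OP9-GFP, 9.53 ± 0.01 for OP9-DL1 and 10.31 ± 0.03 with Compound E (SD over arrays, n = 3 each). The replicates of each group lay within a few hundredths of each other and the 3 groups did not overlap.

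**Figure D1:**
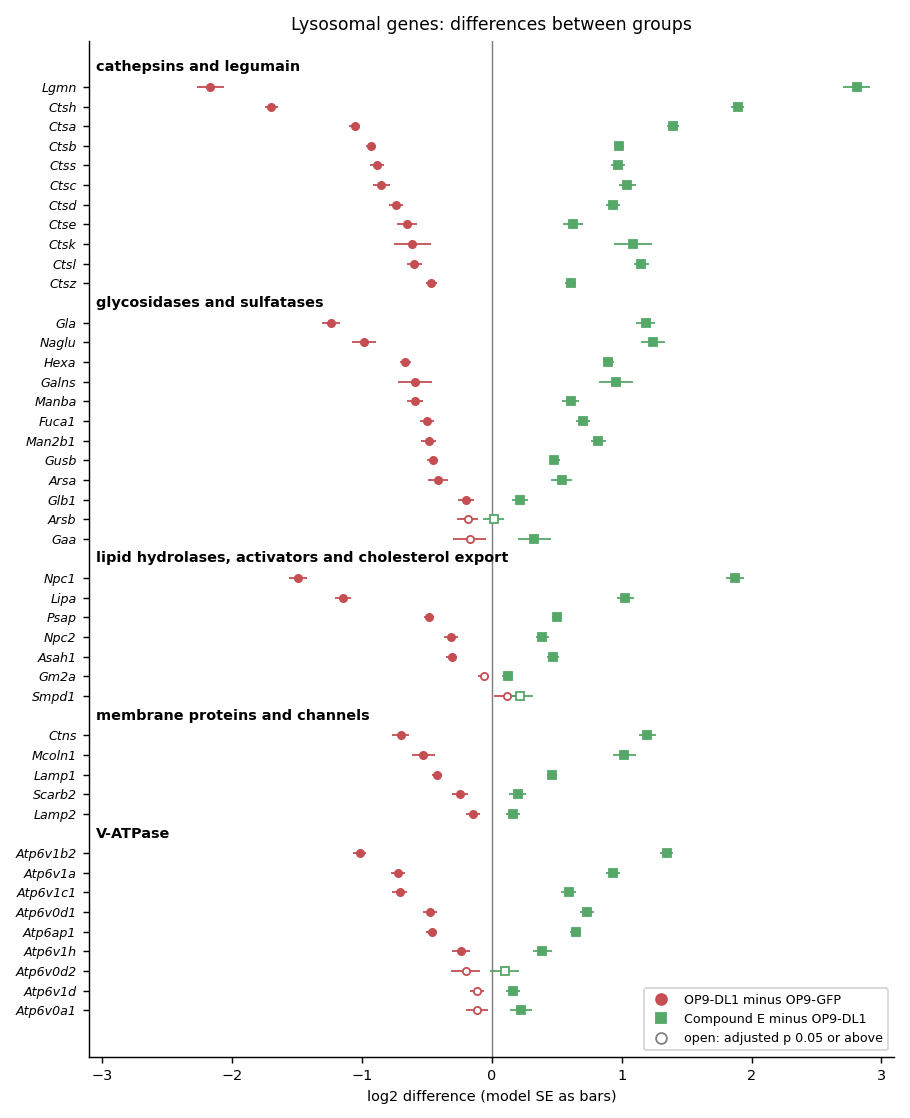
Log2 difference of each lysosomal gene in OP9-DL1 against OP9-GFP and in OP9-DL1+CompoundE against OP9-DL1, grouped by role; circles show the first and squares the second, bars are standard errors of the limma fit, and filled symbols have an adjusted p below 0.05. In the first comparison 37 of 44 genes were called lower, and in the second 41 were called higher.

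A promoter window, from 250 bases before to 50 after the gene start, was found for 35 of the 45 listed genes in the RefSeq table for GRCm38.p6 (39 windows). The 10 without an entry were Asah1, Atp6v0d2, Atp6v1b2, Atp6v1c1, Atp6v1h, Ctsb, Ctse, Ctsh, Galns and Npc1. The letters CACGTG, the E-box core of the CLEAR element, read the same on both strands and stood in 13 of 35 genes (37.1%). They stood in 10.2% of the 14452 tested genes with a window and in 8.91% of 17492 protein-coding genes. The longer form TCACGTG, or CACGTGA on the other strand, contains that core and stood in 12 of 35 genes (34.3%), against 5.8% of tested genes. Many lysosomal genes are known to carry this element, as stated above. These shares therefore restate a known property of the list and use no array values. The windows of the members were no richer in G and C than those of tested genes (median 57.0% against 58.3%) and held fewer CG pairs (median 12 against 16). Whether base composition bears on the motif shares was not tested. In the 250 bases before the start alone, 12 members (34.3%) held the core, against 8.73% of tested genes.

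The 13 genes with the core were Lgmn, Gla, Ctsa, Naglu, Ctsd, Atp6v1a, Ctsl, Mcoln1, Atp6v0d1, Lamp1, Arsa, Glb1 and Gaa; Ctsl held the core without the longer form. The stretches around the core are shown for 9 of them, from every role but lipid breakdown, where no window held the core. Glb1 and Gaa, with the smallest falls of the 13 on OP9-DL1, are not shown. They are written 5′ to 3′ on the gene's strand, with the core in capitals.
Lgmn (chr12:102439123-102439152, minus strand): ggaatgtctgtCACGTGgtccattttatag
Ctsa (chr2:164833743-164833772, plus strand): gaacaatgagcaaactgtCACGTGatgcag
Ctsd (chr7:142387858-142387957, minus strand): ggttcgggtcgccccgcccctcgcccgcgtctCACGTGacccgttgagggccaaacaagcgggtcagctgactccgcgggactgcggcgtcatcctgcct
Gla (chrX:134601156-134601255, minus strand): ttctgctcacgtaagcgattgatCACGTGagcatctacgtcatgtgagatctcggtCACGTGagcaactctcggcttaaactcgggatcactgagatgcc
Naglu (chr11:101069994-101070093, plus strand): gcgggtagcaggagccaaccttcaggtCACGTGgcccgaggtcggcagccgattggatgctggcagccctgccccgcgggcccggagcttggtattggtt
Arsa (chr15:89477425-89477524, minus strand): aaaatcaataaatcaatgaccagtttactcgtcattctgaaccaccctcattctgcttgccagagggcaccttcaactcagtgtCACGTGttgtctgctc
Lamp1 (chr8:13159061-13159160, plus strand): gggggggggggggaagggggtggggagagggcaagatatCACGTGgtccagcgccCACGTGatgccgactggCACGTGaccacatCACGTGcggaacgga
Mcoln1 (chr8:3500419-3500518, plus strand): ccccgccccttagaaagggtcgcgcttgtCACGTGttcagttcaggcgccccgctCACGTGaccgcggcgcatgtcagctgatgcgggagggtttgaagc
Atp6v1a (chr16:44139340-44139439, minus strand): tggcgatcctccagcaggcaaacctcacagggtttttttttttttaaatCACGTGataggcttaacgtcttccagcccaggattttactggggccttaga

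Lamp1 held 4 copies within 100 bases before its start, and Gla, Mcoln1, Ctsa and Ctsd held 2 each in the whole window. Whether copies and size of the response go together was not tested, and single genes differed. Lamp1, with 4, fell by 0.42, while Lgmn, with 1, fell by 2.17. Gla, with 2, fell by 1.24, while Glb1, with 1, fell by 0.20. Of the 13 genes with the core, 12 fell on OP9-DL1 (median −0.60) and 13 rose with Compound E (median 0.93). Of the 21 measured genes whose window lacked it, 16 fell (median −0.47) and 19 rose (median 0.61). The 10 genes with no window in the table had a median of −0.68 and 0.79, with 9 falling and 9 rising. These are descriptions of letters in a window, not of binding, and the difference between the sets was not tested.

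**Figure D2:**
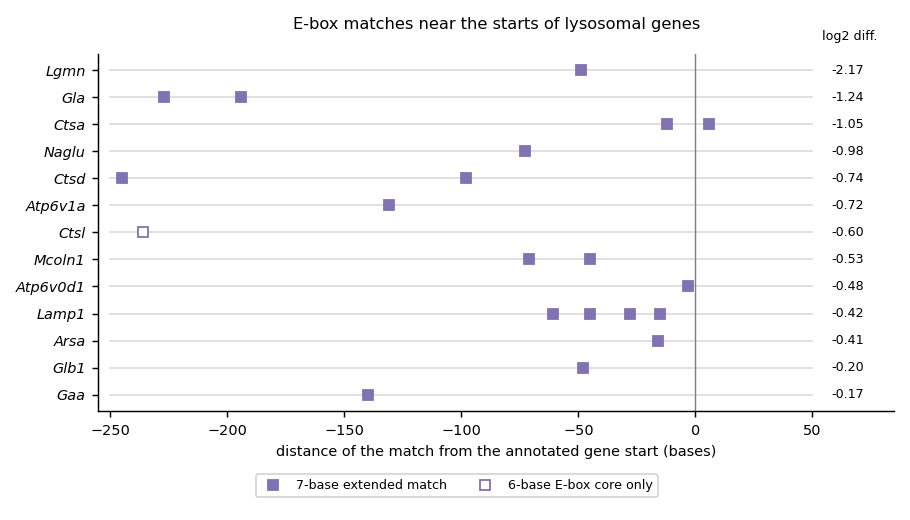
Positions of CACGTG relative to the gene start (in bases, 0 at the start) in the 13 lysosomal promoters that hold it, ordered by the log2 difference of OP9-DL1 minus OP9-GFP printed at the right; filled squares have the longer form and the open square the core alone. Lamp1 has 4 copies within 100 bases of its start, and Lgmn, with the largest fall, has 1.

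The cathepsins and legumain, the proteases of the lysosome, had the largest medians of the 5 roles: 11 of 11 fell on OP9-DL1 (median −0.85) and 11 of 11 rose with Compound E (median 1.04). Lgmn, the asparaginyl endopeptidase that also trims cathepsins into their mature forms, read 7.73, 7.62 and 7.42 on OP9-GFP, 5.44, 5.32 and 5.51 on OP9-DL1 and 8.27, 8.16 and 8.27 with Compound E. The OP9-DL1 arrays were the lowest, the Compound E arrays the highest, and no groups overlapped. It fell by 2.17 ± 0.10 (SE; 4.49-fold lower, adjusted p = 6.73e-11) and rose by 2.81 ± 0.10 (7.01-fold, adjusted p = 1.62e-12), the largest differences among the 44 in both comparisons.

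Ctsh, an aminopeptidase with some endopeptidase activity, read 11.31, 11.31 and 11.24 on OP9-GFP, 9.53, 9.55 and 9.67 on OP9-DL1 and 11.46, 11.50 and 11.48 with Compound E. Its OP9-DL1 arrays stood far below the other 6, which lay close together. The fall was 3.25-fold (−1.70 ± 0.05, adjusted p = 2.4e-13) and the rise 3.72-fold (1.89 ± 0.05, adjusted p = 3.31e-14).

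Ctsa, a serine carboxypeptidase that also protects β-galactosidase and neuraminidase in a complex, read 11.39, 11.45 and 11.36, then 10.35, 10.34 and 10.35, then 11.76, 11.76 and 11.70, in the same order of groups. No groups overlapped, and the OP9-DL1 arrays were the lowest. It fell 2.08-fold (adjusted p = 1.12e-11) and rose 2.63-fold (adjusted p = 2.24e-13).

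Ctsl, an endopeptidase of the papain family, read 10.20 on all 3 OP9-GFP arrays, 9.56, 9.54 and 9.70 on OP9-DL1, and 10.74, 10.81 and 10.70 with Compound E. Here the level with the inhibitor lay clearly above that on the control feeder. The fall was 1.51-fold (−0.60 ± 0.06, adjusted p = 2.39e-07) and the rise 2.22-fold (1.15 ± 0.06, adjusted p = 4.63e-11).

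Ctsc, which activates the serine proteases of granules, read 11.52, 11.52 and 11.66 on OP9-GFP, 10.70, 10.86 and 10.58 on OP9-DL1 and 11.80, 11.68 and 11.78 with Compound E. It fell by 0.85 ± 0.06 (adjusted p = 1.73e-08) and rose 2.06-fold (adjusted p = 9.55e-10). Ctsk, the collagen-degrading cathepsin of osteoclasts, was near background: 4.9, 4.9 and 4.76, then 4.29, 4.13 and 4.30, then 5.59, 5.08 and 5.32. Its groups did not overlap, but its error was larger, with a fall of 0.61 ± 0.14 (adjusted p = 0.00316) and a rise of 1.09 ± 0.14 (adjusted p = 9.53e-06).

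Ctsz, a carboxypeptidase, changed least among the proteases on OP9-DL1, from 12.16, 12.14 and 12.18 to 11.66, 11.67 and 11.76, and read 12.36, 12.30 and 12.26 with the inhibitor. The 3 groups were still separate, and the fall of 0.47 ± 0.04 had an adjusted p of 1.43e-07. The other 4 fell by more than Ctsz: Ctsb by 0.93, Ctss by 0.88, Ctsd by 0.74 and Ctse by 0.66. They rose with Compound E by 0.98, 0.97, 0.93 and 0.63. Ctsb, Ctsd and Ctss are the broadly active cathepsins of phagocytes, Ctss also cuts the invariant chain of MHC class II, and Ctse is an aspartic protease of endosomes.

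**Figure D3:**
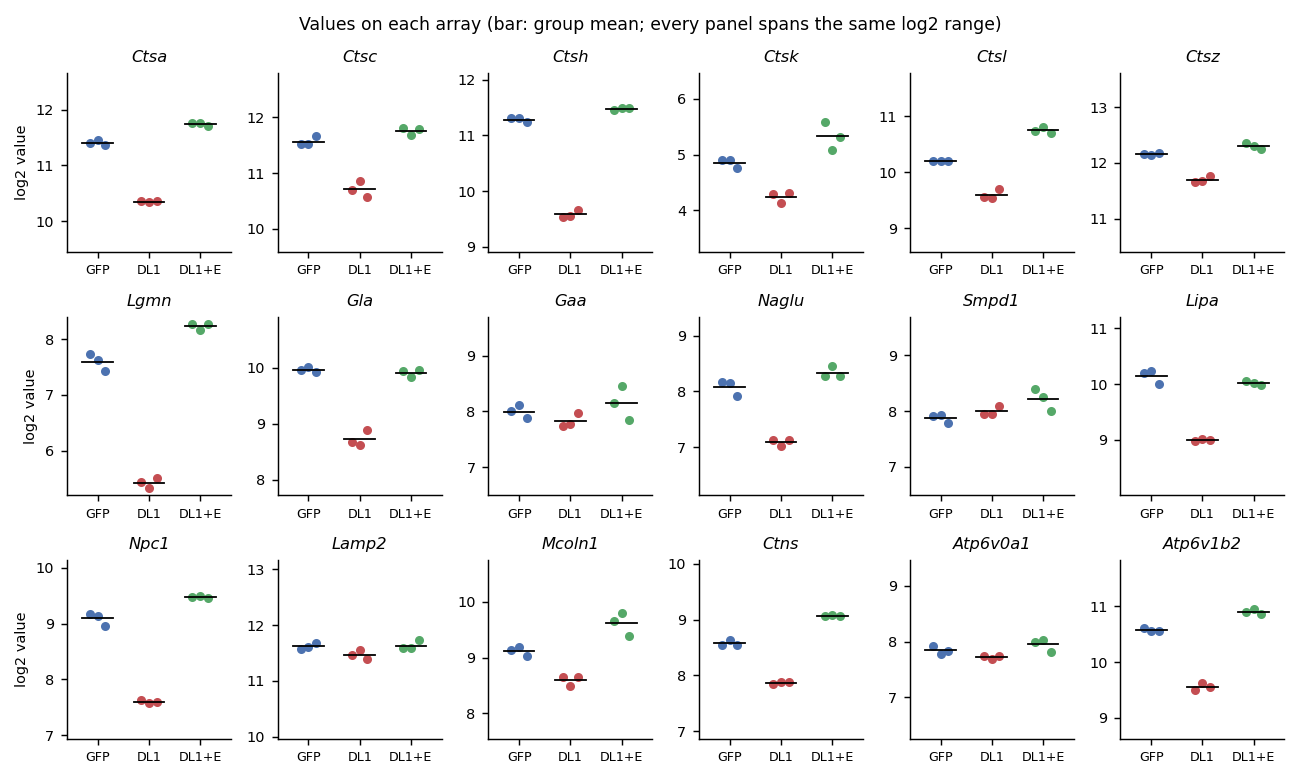
Log2 level of 18 lysosomal genes on each of the 9 arrays, in OP9-GFP, OP9-DL1 and OP9-DL1+CompoundE; points are arrays and bars are group means. For Lgmn, Ctsh and Npc1 the OP9-DL1 arrays lie far below the other 6, while Smpd1, Gaa and Lamp2 show small or overlapping differences.

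Among the 12 glycosidases and sulfatases, which strip sugars and sulfate from glycans and glycolipids, 10 fell on OP9-DL1 (median −0.49) and 11 rose with Compound E (median 0.65). Gla, the α-galactosidase A lacking in Fabry disease, read 9.97, 10.01 and 9.92 on OP9-GFP, 8.67, 8.62 and 8.90 on OP9-DL1 and 9.95, 9.84 and 9.96 with the inhibitor. The OP9-GFP and Compound E arrays overlapped and the OP9-DL1 arrays lay below both. It fell 2.36-fold (−1.24 ± 0.07, adjusted p = 5.9e-10) and rose 2.27-fold (1.18 ± 0.07, adjusted p = 6.81e-10).

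Naglu, which removes N-acetylglucosamine from heparan sulfate, read 8.17, 8.16 and 7.91, then 7.12, 7.03 and 7.13, then 8.28, 8.45 and 8.28. Its fall was 0.98 ± 0.09 (adjusted p = 2.16e-07) and its rise 1.24 ± 0.09 (2.36-fold, adjusted p = 8.56e-09). Gaa, the glycogen-degrading α-glucosidase, read 8.0, 8.12 and 7.88, then 7.73, 7.78 and 7.98, then 8.15, 8.46 and 7.85. All 3 of its groups overlapped.

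Gaa did not pass in OP9-DL1 against OP9-GFP (−0.17 ± 0.13, adjusted p = 0.37). It passed narrowly with Compound E (0.33 ± 0.13, adjusted p = 0.0451). That call was lost without OP9-GFP replicate 1 or 2, OP9-DL1 replicate 1 or 2, or OP9-DL1+CompoundE replicate 1 or 2. It was also lost with 32 added to the linear values, quantile normalization, probe sets averaged, no intensity trend or only the 6 arrays compared (highest adjusted p of all 0.243). Arsb, the sulfatase of dermatan sulfate, passed in neither comparison (−0.19 ± 0.08 and 0.02 ± 0.08, adjusted p = 0.0945 and 0.885); with arrays centred it was called lower on OP9-DL1 (adjusted p = 0.0438).

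The other 8 fell on OP9-DL1. Hexa, a subunit of β-hexosaminidase, fell by 0.67, the mannosidases Manba and Man2b1 by 0.59 and 0.49, the keratan sulfate sulfatase Galns by 0.59 and the fucosidase Fuca1 by 0.50. The β-glucuronidase Gusb fell by 0.45, the sulfatide sulfatase Arsa by 0.41 and the β-galactosidase Glb1 by 0.20. With Compound E they rose by 0.90, 0.61, 0.82, 0.96, 0.70, 0.48, 0.54 and 0.22, in that order. The call of a fall for Glb1 (adjusted p = 0.0198) was lost without OP9-GFP replicate 1 or 2 or OP9-DL1 replicate 1 or 2 (highest adjusted p 0.0916), and that for Fuca1 with the probe set of largest variance (adjusted p = 0.0532).

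Of the 7 genes for lipid breakdown and cholesterol export, 5 fell on OP9-DL1 (median −0.32) and 6 rose with Compound E (median 0.47). Npc1, the membrane protein that passes cholesterol out of the lysosome, read 9.17, 9.14 and 8.97 on OP9-GFP, 7.64, 7.57 and 7.59 on OP9-DL1 and 9.47, 9.50 and 9.46 with Compound E. The 3 groups did not overlap, and OP9-DL1 was the lowest. It fell 2.81-fold (−1.49 ± 0.07, adjusted p = 5.02e-11) and rose 3.66-fold (1.87 ± 0.07, adjusted p = 1.77e-12).

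Lipa, the acid lipase that frees that cholesterol from its esters, read 10.19, 10.23 and 10.01, then 8.98, 9.01 and 8.99, then 10.07, 10.03 and 9.98. Its OP9-GFP and Compound E arrays overlapped. The fall was 2.22-fold (−1.15 ± 0.06, adjusted p = 3.24e-10) and the rise 2.04-fold (1.03 ± 0.06, adjusted p = 8.17e-10). Npc2, the soluble partner that hands cholesterol to NPC1, fell by 0.32 ± 0.05 and rose by 0.39 ± 0.05.

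Smpd1, the acid sphingomyelinase, had the 1 difference above 0 in OP9-DL1 against OP9-GFP and read 7.91, 7.94 and 7.79, then 7.95, 7.94 and 8.09, then 8.39, 8.25 and 8.0. The difference of 0.12 ± 0.10 did not pass (adjusted p = 0.443), nor did 0.22 ± 0.10 with Compound E (adjusted p = 0.0756), which was called with arrays centred, over the brighter genes and without OP9-DL1+CompoundE replicate 3 (lowest adjusted p 0.00496). The ceramidase Asah1 and Psap, the precursor of the saposins that present lipids to these enzymes, fell by 0.31 and 0.48 and rose by 0.47 and 0.50. Gm2a, the activator of GM2 breakdown, did not pass on OP9-DL1 (−0.06 ± 0.04, adjusted p = 0.337). Its rise of 0.12 with Compound E was lost without OP9-DL1 replicate 1 or 2 or OP9-DL1+CompoundE replicate 1 or 3. That rise was also lost without the intensity trend and with only the 6 arrays compared (highest adjusted p of all 0.138).

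All 5 measured membrane proteins fell on OP9-DL1 (median −0.42) and rose with Compound E (median 0.47), but by unequal amounts. Ctns, the cystine exporter, read 8.54, 8.64 and 8.55 on OP9-GFP, 7.84, 7.89 and 7.89 on OP9-DL1 and 9.07, 9.09 and 9.06 with Compound E. It fell by 0.70 ± 0.07 (adjusted p = 2.39e-07) and rose by 1.20 ± 0.07 (2.29-fold, adjusted p = 2.12e-10). Mcoln1, the calcium channel TRPML1, read 9.14, 9.19 and 9.03, then 8.65, 8.49 and 8.64, then 9.66, 9.79 and 9.39.

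For both the 3 groups were separate and the Compound E arrays were the highest. Mcoln1 fell by 0.53 ± 0.09 (adjusted p = 0.000174) and rose by 1.02 ± 0.09 (2.03-fold, adjusted p = 7.59e-08). Lamp2, a glycoprotein that coats the inner membrane face and takes part in chaperone-mediated autophagy, read 11.57, 11.60 and 11.68, then 11.47, 11.55 and 11.40, then 11.59, 11.59 and 11.73. Its OP9-DL1 arrays were the lowest, by a small margin, and the other 2 groups overlapped.

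The fall of 0.15 ± 0.05 for Lamp2 (adjusted p = 0.044) was lost without any 1 of the OP9-GFP replicates, OP9-DL1 replicate 1 or 3, or OP9-DL1+CompoundE replicate 1. It was also lost with 32 added to the linear values, no intensity trend or a replicate block (highest adjusted p of all 0.182). The rise of Lamp2 of 0.16 (adjusted p = 0.019) was lost without OP9-DL1 replicate 1 or 3, OP9-DL1+CompoundE replicate 3 or the intensity trend (highest 0.0907). Lamp1, its paralog, fell by 0.42 ± 0.04 and rose by 0.47 ± 0.04. Scarb2, the receptor that carries β-glucocerebrosidase to lysosomes, fell by 0.25 and rose by 0.20. The rise was lost without OP9-DL1 replicate 3, OP9-DL1+CompoundE replicate 1 or 3, or the intensity trend (highest 0.0942).

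Of 9 V-ATPase genes, 6 fell on OP9-DL1 (median −0.46) and 8 rose with Compound E (median 0.59). Atp6v1b2, a nucleotide-binding subunit of V1, read 10.60, 10.57 and 10.56 on OP9-GFP, 9.51, 9.62 and 9.55 on OP9-DL1 and 10.90, 10.95 and 10.87 with Compound E. The 3 groups did not overlap. It fell 2.02-fold (−1.02 ± 0.05, adjusted p = 8.67e-11) and rose 2.54-fold (1.35 ± 0.05, adjusted p = 1.66e-12).

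Its catalytic partner Atp6v1a fell by 0.72 and rose by 0.93, and the stalk subunit Atp6v1c1 fell by 0.71 and rose by 0.59. The V0 subunit Atp6v0d1 fell by 0.48 and rose by 0.73, the accessory protein Atp6ap1 fell by 0.46 and rose by 0.64, and the regulatory V1 subunit Atp6v1h fell by 0.24 and rose by 0.39. The fall of Atp6v1h was lost with probe sets averaged and without OP9-GFP replicate 2 or OP9-DL1 replicate 3 (highest adjusted p of these 0.157), and its rise was lost with probe sets averaged (adjusted p = 0.0659). Atp6v0a1, an isoform of the large V0 subunit, read 7.92, 7.77 and 7.84, then 7.74, 7.69 and 7.75, then 8.0, 8.03 and 7.82.

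Atp6v0a1 did not pass on OP9-DL1 (−0.12 ± 0.08, adjusted p = 0.353) and passed with Compound E (0.22 ± 0.08, adjusted p = 0.039). That call was lost without OP9-GFP replicate 1, any 1 OP9-DL1 replicate, or OP9-DL1+CompoundE replicate 1 or 2, and under other choices of probe set (highest adjusted p 0.882). Quantile normalization, a replicate block and a fit of only the 6 arrays compared lost it as well. Atp6v1d, a subunit of the rotating stalk, did not pass on OP9-DL1 (−0.12 ± 0.05, adjusted p = 0.117), but was called lower with arrays centred and with probe sets averaged or chosen by variance (lowest adjusted p 0.00803). Its rise of 0.16 with Compound E was lost without OP9-DL1 replicate 1 or 3, OP9-DL1+CompoundE replicate 1 or 3, or the intensity trend (highest 0.0893).

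With Compound E the lysosomal genes were either higher than on the control feeder or not called. In OP9-DL1+CompoundE against OP9-GFP, 20 of 44 were higher and 0 lower (limma), and 0 were 2-fold higher or lower, against 0.605% and 0.753% of all genes. Of all genes 22.7% were called, 12.1% higher and 10.6% lower. The fit on only the brighter genes still gave 1888 higher and 1821 lower, a larger share. The median of the members was 0.15, against 0.05 for all genes. Without overlap, 23 members were higher and 1, Arsb, was lower, against 19.8% and 15% of all genes.

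By role, 8 of 11 proteases were called higher, 3 of 12 glycosidases and sulfatases and 3 of 7 lipid genes. So were 2 of 5 membrane proteins and 4 of 9 V-ATPase genes, against 12.1% of all genes and a larger share of the brighter genes. The largest among those given array by array were Lgmn (0.64 ± 0.10, adjusted p = 0.000291), Ctsl (0.56 ± 0.06, adjusted p = 3.11e-06), Ctns (0.50 ± 0.07, adjusted p = 4.82e-05) and Mcoln1 (0.49 ± 0.09, adjusted p = 0.000797). Smpd1 was called as well (0.34 ± 0.10, adjusted p = 0.0201), a call lost with probe sets averaged and without OP9-GFP replicate 3 or OP9-DL1+CompoundE replicate 1 or 2 (highest adjusted p 0.248). Gla (−0.05 ± 0.07, adjusted p = 0.636) and Lipa (−0.12 ± 0.06, adjusted p = 0.193) were not called.

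This comparison rests on smaller differences than the other 2. Of its 20 calls, 9 held in every alternative other than a 2-fold minimum: Ctsa, Ctsl, Lgmn, Hexa, Man2b1, Npc1, Ctns, Mcoln1 and Atp6v0d1. Those of Ctsc, Ctsd, Ctsh, Ctsk, Ctsz, Atp6v1a, Atp6v1b2 and Atp6ap1 were each lost in some alternative. So were those of Fuca1, Asah1 and Smpd1. For OP9-DL1 against OP9-GFP 33 of 37 calls held, and for the effect of Compound E 34 of 41. Centring each array on its median raised the median of all genes with Compound E from 0.08 to 0.21 against OP9-DL1 and from 0.05 to 0.14 against OP9-GFP. The calls over all genes then went from 4574 higher and 3926 lower to 8040 and 2876 in the first case, and from 2208 and 1927 to 4466 and 1242 in the second. Under that centring 30 members, not 20, were higher than on OP9-GFP.

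The choice of probe set set the size of many differences but rarely their direction. For 25 members another probe set lay above background, 46 in all. Of these, 44 had the same sign as the one used in OP9-DL1 against OP9-GFP, and 35 differed by more than it did. With Compound E, 45 had the same sign and 37 differed by more. The exceptions in sign were fainter probe sets of Arsb and Gm2a.

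The gap was wide for several genes. Npc2 fell by 0.32 on the probe set used (mean 12.04) and by 1.75 on another (mean 10.02). Ctsl fell by 0.60 and by 1.72, Ctsb by 0.93 and by as much as 1.89, and Scarb2 by 0.25 and 1.11. In each of these pairs the probe set used was the brighter one and gave the smaller difference. Lamp2 fell by 0.15 on the probe set used (mean 11.57) and by 0.52 on another (mean 10.25), and rose by 0.16 and 0.93. For Gla a fainter probe set was at background on OP9-DL1, so its fall has no exact size; it read 1.15 higher with Compound E than on OP9-GFP, where the brighter one read −0.05.

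**Figure D4:**
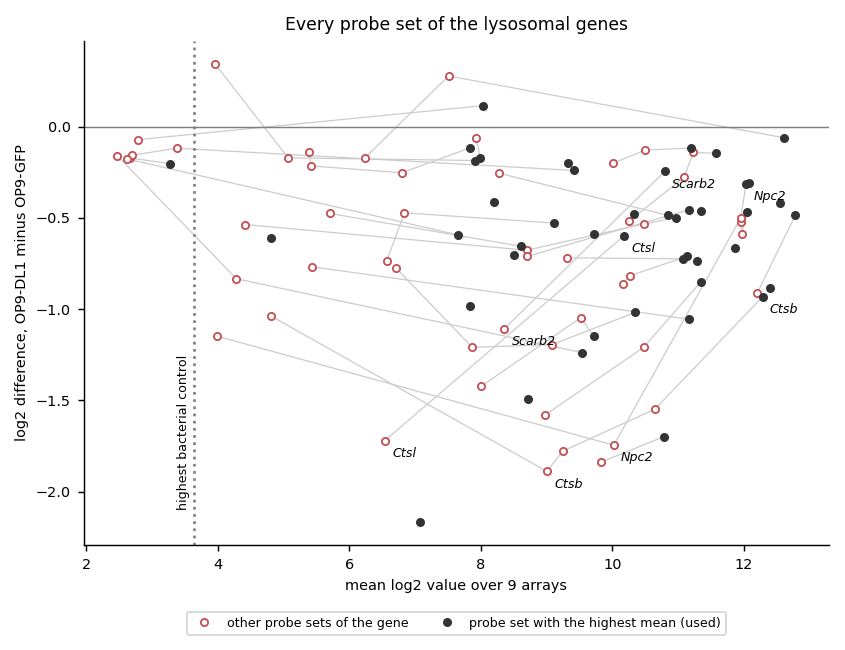
Log2 difference of OP9-DL1 minus OP9-GFP for every probe set of the lysosomal genes against its mean log2 value over 9 arrays; filled points are the probe sets used, open points the others, and lines join probe sets of a gene. Other probe sets of Npc2, Ctsl, Ctsb and Scarb2 lie below the ones used, at falls of 1.75, 1.72, 1.89 and 1.11.

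Other lysosomal genes, from lists of 66 symbols of which 59 were measured, mostly moved the same way, with smaller medians. Here and below, counts and medians of other lysosomal genes include the 4 Mitf-Tfe factors, which are also described on their own. In OP9-DL1 against OP9-GFP, 35 were lower and 5 higher (median −0.26), against 16.7% and 15.9% of all genes. With Compound E 38 were higher and 2 lower than without it (median 0.39), against 25.1% and 21.6% of all genes. Against OP9-GFP, 23 were then higher and 4 lower (median 0.15), against 12.1% and 10.6% of all genes. Among 20 further hydrolases 15 fell and 1 rose, among 23 membrane and trafficking genes 11 fell and 3 rose, and among 12 further V-ATPase genes 5 fell and 1 rose. With Compound E, 16, 13 and 5 of them rose and 0, 2 and 0 fell. The medians of these lists were −0.48, −0.17 and −0.15 on OP9-DL1 and 0.50, 0.28 and 0.17 with Compound E. In falls on OP9-DL1 and rises with Compound E, the last 2 lists stood nearer the shares of all genes than the hydrolases did.

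Cd68, a heavily glycosylated membrane protein of macrophage lysosomes, fell by 2.08 ± 0.05 and rose by 2.41 ± 0.05 (adjusted p = 3.9e-14 and 3.4e-15). The carboxypeptidase Scpep1 fell by 1.44 and rose by 1.67, and the thioesterase Ppt1 fell by 0.66 and rose by 1.47. Tcirg1, the V0 subunit isoform of osteoclasts, fell by 0.79 and rose by 1.20.

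A few went the other way. Igf2r, the cation-independent mannose 6-phosphate receptor, rose by 0.98 ± 0.13 on OP9-DL1 (adjusted p = 1.66e-05) and fell by 1.00 ± 0.13 with Compound E (adjusted p = 9.08e-06). Laptm4b, a membrane protein of late endosomes, rose by 0.37 and fell by 0.61. Slc11a1, the phagosomal metal transporter, was higher on OP9-DL1 (0.39 ± 0.08) and higher again with Compound E (0.72 ± 0.08). Atp6v0a2, another isoform of the large V0 subunit, rose by 0.40 on OP9-DL1 and did not pass with Compound E (−0.04). Acp5, the acid phosphatase of osteoclasts, was at background on OP9-GFP (3.48) and averaged 4.27 on OP9-DL1 and 4.16 with Compound E, so its called rise has no exact size.

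The Mitf-Tfe family includes TFEB, TFE3 and MITF, named above as binding the CLEAR element. Its 4 genes all fell on OP9-DL1 and all rose with Compound E. They are already counted among the other lysosomal genes above. Mitf averaged 10.89, 9.32 and 11.01 in OP9-GFP, OP9-DL1 and the Compound E group, a fall of 1.56 ± 0.05 (adjusted p = 5.11e-13) and a rise of 1.69 ± 0.05 (adjusted p = 8.74e-14). Tfec fell by 0.79 and rose by 0.79, Tfe3 by 0.65 and 0.95, and Tfeb, at a low level of 5.80, 5.12 and 6.35, by 0.68 and 1.24. These are RNA levels; the factors' activity was not measured.

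Markers of macrophages moved in the same directions, with larger medians. Of 13 measured, 12 fell on OP9-DL1 and 0 rose (median −1.59), and 11 rose with Compound E and 0 fell (median 1.87). Their summed linear level ranged over 27482 to 28597 in OP9-GFP, 12982 to 13567 in OP9-DL1 and 30758 to 31825 in the Compound E group. Adgre1, a macrophage adhesion receptor, averaged 9.92, 7.70 and 10.56, and Csf1r, the M-CSF receptor, 12.37, 11.30 and 12.59. The part of macrophage markers in the lysosomal result was not tested.

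With Compound E, 8 of the 13 macrophage markers were higher than on OP9-GFP and 3 lower (median 0.23), where 20 of the 44 lysosomal genes were higher and 0 lower (median 0.15). The 3 lower markers were C1qb, Mrc1 and Mertk. C1qb, a complement chain, averaged 9.36 on OP9-GFP and stayed at 7.01 and 6.79 without and with Compound E, 2.56 ± 0.10 below OP9-GFP in the latter case (adjusted p = 1.76e-10). Mrc1, the mannose receptor, and Mertk, a receptor for apoptotic cells, were 1.21 and 1.02 below OP9-GFP with Compound E. The summed level of all 44 lysosomal genes was 95985 to 97591, 66192 to 66698 and 103447 to 106935, in the order OP9-GFP, OP9-DL1 and Compound E. C1qa was at background in every group.

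Marker lists of other cell types moved in other directions. Of 9 megakaryocyte markers 9 rose on OP9-DL1 and 9 fell with Compound E, and of 10 mast cell markers 8 rose and 1 fell, then 0 rose and 8 fell. Of 14 stromal markers 10 rose and 0 fell, then 1 rose and 10 fell; their summed linear level ranged over 15655 to 15785 in OP9-GFP, 22704 to 22870 in OP9-DL1 and 15648 to 16140 with Compound E, Dcn and Lum were at background in all groups and the other 12 above it, with Cxcl12 averaging 12.21, 12.56 and 12.08 and Sparc 11.43, 12.05 and 11.53. Of 11 neutrophil markers 6 rose and 5 fell, then 4 rose and 6 fell. Their part in the lysosomal result was not tested either.

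Among 7 markers of the LSK start population 5 rose on OP9-DL1 and 2 fell, and 1 rose and 5 fell with Compound E; Kit averaged 8.94, 10.22 and 8.14, while Ly6a, which encodes Sca-1, was not analysed here. Of 6 lineage markers, Cd3e, Cd4 and Cd79a were at background in all groups and Cd8a in 2 of 3, and the calls for Cd3e (1 rise on OP9-DL1, 1 fall with Compound E) carry no information. Itgam, a myeloid integrin that is also among the macrophage markers, averaged 6.03, 4.93 and 6.94, and Ptprc, the pan-leukocyte CD45, 11.53, 11.38 and 11.59.

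**Figure D5:**
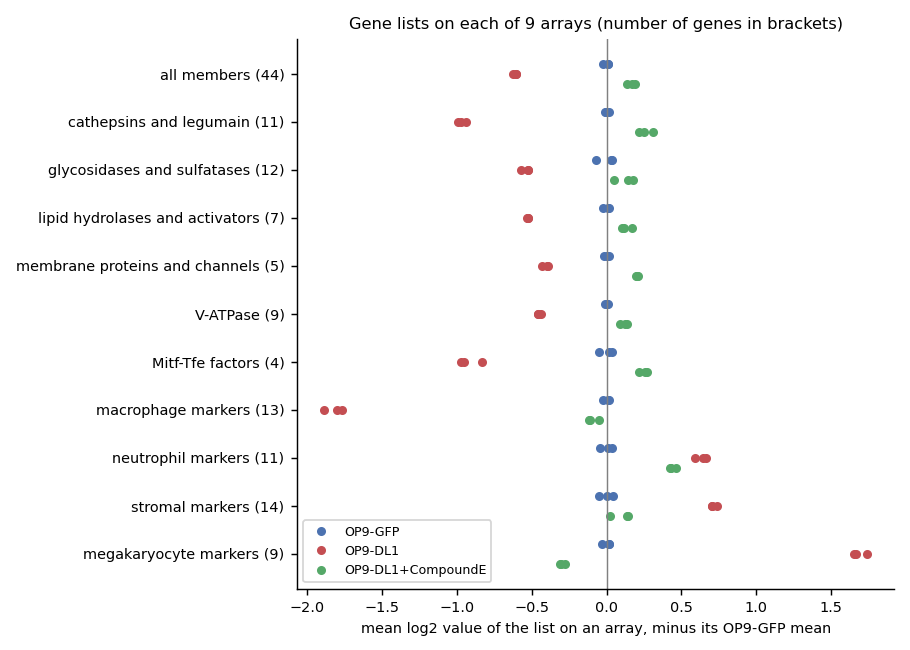
Mean log2 level per array, minus the list's OP9-GFP mean, of the lysosomal genes by role, the Mitf-Tfe factors and 4 cell type marker lists; points are arrays, coloured by group. The lysosomal, Mitf-Tfe and macrophage lists are lowest in OP9-DL1, and the stromal, neutrophil and megakaryocyte lists are highest there.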

How the data were processed

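The deposited log2 values of 9 one-colour arrays (45101 probe sets each) were used as the authors deposited them, without further normalization. The submitters' processing notes list GCRMA 2.4.1 and MAS5; the one behind these values is not stated in the labels, and the log2 scale was read from the values themselves. Array number limits the precision.

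Names of probe sets came from the supplied platform annotation, updated through Entrez identifiers to the RefSeq table for GRCm38.p6: 34945 had 1 symbol, 932 several and 9160 none. Only those with 1 were used, 1 per gene by highest mean. All 18193 genes on all 9 arrays were fitted together in limma 3.58.1 (R 4.3.3; lmFit, eBayes with an intensity trend, no covariate). P-values were Benjamini-Hochberg adjusted over all genes, with a threshold of 0.05, and were tested on simulated data first. SE is the moderated standard error; fold is 2 to the power of the log2 difference.

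The lysosomal genes, the other gene and marker lists and the tests were chosen with earlier results of these data known. Values are given array by array for members called with at least a 2-fold difference in either of the first 2 comparisons, and for the member of each role with the highest difference of OP9-DL1 minus OP9-GFP. Promoter windows came from RefSeq (GRCm38.p6), searched on both strands. Replicate numbers were not used as pairs. Alternatives covered scaling, filters, probe set choice, variance model, arrays left out and a replicate block.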

Additional observations from a re-analysis of the deposited data

How the results depend on the processing

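No called direction reversed among the lysosomal genes; the alternatives changed sizes and the weaker calls. Leaving out 1 array at a time gave 34 to 37 falls in OP9-DL1 against OP9-GFP, 36 to 41 rises with Compound E, 14 to 20 members higher with Compound E than on OP9-GFP and 0 to 1 lower (Lipa, without OP9-GFP replicate 3). Among the other lysosomal genes, 0 to 4 were then lower with Compound E than on OP9-GFP. Centring arrays on their medians gave members' medians of 0.80 (Compound E against OP9-DL1) and 0.25 (against OP9-GFP), other lysosomal medians of 0.52 and 0.24, and 0 other lysosomal genes lower than on OP9-GFP. Averaging probe sets gave a members' median of −0.59 for OP9-DL1 against OP9-GFP, 1 member lower with Compound E than on OP9-GFP and 2 other lysosomal genes lower. Taking the probe set with the largest variance gave members' medians of −0.66 and 0.93, other lysosomal medians of −0.38 and 0.55, and 1 of each list lower with Compound E than on OP9-GFP (Lipa among the members). The difference of Gla, OP9-DL1+CompoundE against OP9-GFP, not called at −0.05, turned to 0.43 with probe sets averaged (adjusted p = 0.00275) and to 1.15 with the largest variance (adjusted p = 3.89e-05). Keeping the brighter genes gave 3 other lysosomal genes higher on OP9-DL1 and, with Compound E against OP9-DL1, 1 lower with a median of 0.50. Without the intensity trend 12 members were higher than on OP9-GFP with Compound E, and 1 other lysosomal gene was lower; with only the 6 arrays compared, 1 was lower. A 2-fold minimum left 7 falls, 13 rises and 0 members higher than on OP9-GFP. It left 0 rises and 4 falls among other lysosomal genes on OP9-DL1, 12 rises and 1 fall with Compound E, and 1 higher and 0 lower against OP9-GFP.

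With the replicate number as a block, 36 members fell on OP9-DL1, 40 rose with Compound E and 20 were higher than on OP9-GFP, and 2 other lysosomal genes were lower than on OP9-GFP. Same-numbered arrays showed little shared deviation over all genes (correlations from −0.11 to 0.12). These correlations cannot show whether such arrays came from a shared culture or batch, which the labels do not state. Filters on genes at background and on genes with equal values were added after seeing the data; the second removes the 9 members with such values and left 29, 32 and 14 calls. The cause of the other changes was not tested. Signal over background limits Atp6v0d2, and 3 arrays a group limit differences near 0.15.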
